A study of Homo sapiens with 6 samples.

Results

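Tumours grown from HS-SY-II-Cas9 cells in athymic nude mice were compared with the same cells at day 0, over the guide RNAs of a pooled CRISPR library. These are human synovial sarcoma cells of an established line that carries the SS18::SSX1 fusion, and they were made to express Cas9, and all libraries come from this 1 line, transduced with lentiviral guides and selected with puromycin. The comparison uses 4 of the 6 libraries of the screen, which are 2 of day 0 cells and 2 of tumours. Day 0 is a frozen aliquot of the selected cells. For the tumours, cells in Matrigel were placed under the skin of the flank of each of 4 mice per replicate. Mice were killed at a tumour volume of 1 cm3. The sources used here do not say whether a replicate's library holds 1 tumour or several, and a tumour below means such a library. Requiring an average of 30 or more counts at day 0 kept 3607 of 3653 guides, which were summarised for each of 348 genes. The labels number the tumours replicates 1 and 2, the study's appendix names both as replicate 1, and the labels were followed. The study transduced the cells in duplicate, but with that naming it is not settled that the tumours come from separate transductions, and p-values measure the spread between these libraries.

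In a pooled screen each cell carries 1 guide that directs Cas9 to cut its target gene, and a guide becomes rarer when cells that lost the gene divide less or die. Growth as a tumour adds steps that culture lacks, such as engraftment. The SS18::SSX fusion acts through the BAF chromatin remodelling complex, and SUMO2 is a small protein that is joined to lysines of other proteins, chromatin regulators among them.

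The study chose the 348 genes as selective needs of synovial sarcoma lines in public dependency data. A fall of many of them is therefore what the library was built around and is not independent evidence for any 1 gene. The gene lists below were chosen with earlier results of these data known. Their shares, set beside those of all second set genes, are descriptions and not independent evidence. Guide numbers fall into 2 runs, called here the first set (the lower numbers, 1492 guides kept, 299 genes) and the second set (the higher numbers, 1932 guides kept, 348 genes). Of the genes, 299 have guides in both sets, mostly 5 in each, and 49 have second set guides only, mostly 10. The sources used here do not say what separates the runs, and whether first set guides cut the genes that the table assigns to them could not be checked without their sequences, so each first set value belongs to a gene only as far as that assignment holds. The value of a gene in a library is the median over its guides of log2(CPM + 1), minus the same guide's mean at day 0 and minus the median of the 183 non-targeting guides (CPM is the count scaled to an equal total in every library). The day 0 values of a gene therefore lie at equal distances on both sides of 0. Total counts were about 4457670 to 21854200 per library, a mean of 1220 to 5983 per guide, and 1 CPM equalled 4.46 reads in tumour replicate 1 and 8.53 in tumour replicate 2. With 1 CPM added, the fall of a guide that was almost lost is understated.

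Values of the second set were shifted below 0 in both tumours, and those of the first set mostly lay around 0. Of the 348 second set genes, 172 (49.4%) were lower and 1 (0.287%) was higher in tumours than at day 0 by limma at an adjusted p under 0.05. Of the 299 first set genes 5 (1.67%) were lower and 0 (0%) higher, against 12 and 4 genes where p was below 0.05 before adjustment. First set guides took 41.2% and 44.5% of all reads at day 0 and 54.2% and 55.0% in the tumours, while second set guides went from 53.3% and 49.7% to 38.3% and 38.1%. The median second set value was -1.42 in tumour replicate 1 and -1.15 in tumour replicate 2, and the median first set value was -0.19 and -0.00261. The quartiles of the second set were -2.03 and -0.68. All 172 called genes had both tumours below both day 0 libraries, as had 285 of the 348 second set genes and 74 of the 299 first set genes. Between the tumours, second set values had a Pearson r of 0.737 (Spearman 0.666) over 348 genes, and first set values 0.232 (0.214) over 299. Genes are not independent replicates, and both tumours were measured against the same day 0 libraries.

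Most of the second set thus lay below the median of the non-targeting guides, which is the zero point. Of 348 genes 300 were below 0 in both tumours, 9 above 0 in both and 39 on opposite sides. The count of called genes moves with the zero point. Scaled by TMM over all guides, the median was -0.63 for the second set and 0.50 for the first, with 83 second set genes lower and 2 higher, and 0 first set genes lower and 9 higher. Median-ratio size factors gave -0.62 and 0.51, with 76 and 2, and 0 and 8. Centred on the second set's own guides, a setting chosen after seeing the data, 60 second set genes were lower and 25 higher, and all 60 were among the 172. Among the second set genes named below, AKT1, CENPF, COMMD5, CTNNBIP1, CUL9, CYHR1, DKK1, FN1, HIPK1, HIST1H2AM, HIST3H2BB, ING3, MAB21L1, METTL2B, MTRNR2L3, NRBP2, RING1, SMARCD1, TERF1, TYW1B, USP6 and ZNF250 were not called under any of these zero points, and NAPRT, PIK3C2B, SKA2 and TP53I13 were not called when centred on the second set. Second set values spread more between the tumours (SD 0.751) than between the day 0 libraries (SD 0.297), and the test pools both. A fit without a day 0 library uses the tumour spread, and a fit without a tumour uses the day 0 spread. Genes named below that lost their call without day 0 replicate 2 had 1 common SE there (0.846). Each such loss reflects only the size of the gene's difference. The count also rests on having both day 0 libraries. Without day 0 replicate 1 it was 48 and without day 0 replicate 2 it was 80, and 46 genes were lower with every library left out in turn. The first set count of 5 was 0 without either day 0 library, 19 without tumour replicate 1 and 45 without tumour replicate 2.

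**Figure D1:**
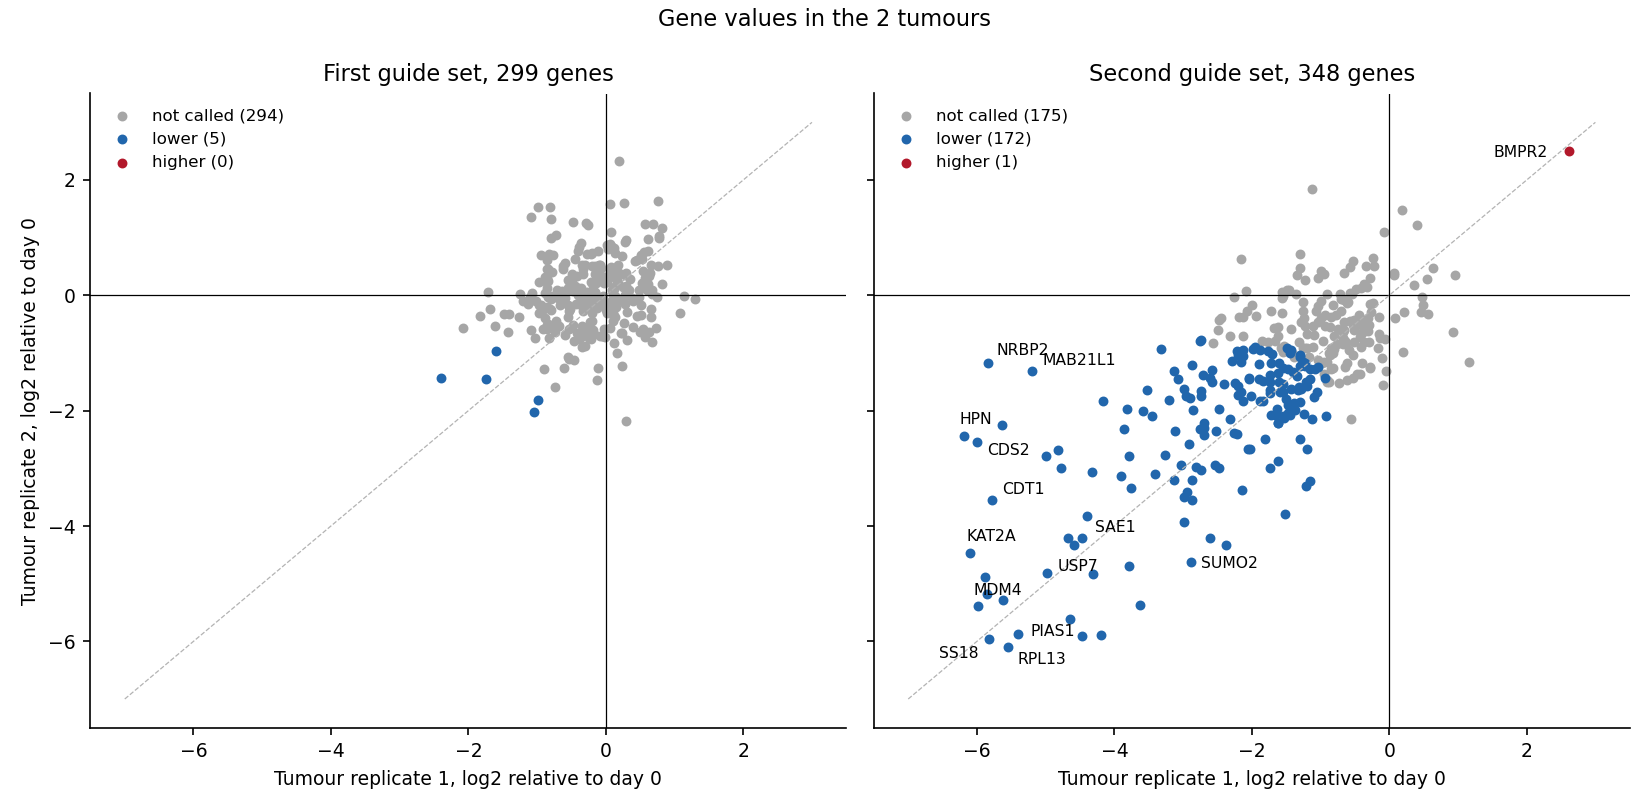
Values of each gene in tumour replicate 1 (horizontal axis) and tumour replicate 2 (vertical axis), as log2 relative to day 0 and to non-targeting guides, for the first set (left, 299 genes) and the second set (right, 348 genes). Points are genes, blue where lower, red where higher and grey where not called by limma, and the dashed line marks equal values; first set genes surround 0, and second set genes reach down to -6.19 in tumour replicate 1, with BMPR2 alone at the upper right.

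The same contrast was seen in single guides. A guide is called depleted here when its value lies below the 5th percentile of the non-targeting guides of that tumour, which was -1.33 in tumour replicate 1 and -1.68 in tumour replicate 2. In both tumours 543 of the 1932 second set guides (28.1%) were depleted, against 65 of the 1492 first set guides (4.36%) and 1 of the 183 non-targeting guides (0.546%). In tumour replicate 1 alone the shares were 51.1% of the second set and 15.9% of the first, and in tumour replicate 2 36.8% and 9.58%. The 49 genes with second set guides only had 24.2% of their guides depleted in both tumours, and the second set guides of the other 299 genes 29.4%. The shift was therefore present in both kinds of gene. In 10 second set genes every kept guide was depleted in both tumours, namely SS18, RPL13, MDM4, PIAS1, PRPF19, BRD9, FFAR1, CDS2, PAOX and PXMP2, of which PAOX and PXMP2 were picked out by this count. In 107 second set genes no guide was.

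SS18, the BAF subunit whose gene supplies the start of the fusion, had the lowest second set value of all. It spans 26016253 to 26091219 on chromosome 18 (RefSeq, GRCh38.p14). Its median guide stood at 168 and 165 CPM at day 0 and at 3.14 and 1.29 CPM in the tumours. Its value was -5.82 in tumour replicate 1 and -5.97 in tumour replicate 2, a difference of -5.89 ± 0.37 (SE, n = 2 against 2, limma adjusted p = 2.1e-05). All 5 guides were depleted in both tumours. One of them, sgRNA_1502, had 6913 and 1563 reads at day 0 and 14 and 13 in the tumours. Since a cut in SS18 can break the fused and the normal copy, the guides do not tell them apart.

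BRD9, a bromodomain protein of the noncanonical BAF complex, followed SS18. Its median guide went from 147 and 113 CPM to 1.35 and 2.11 CPM. The value was -4.68 in tumour replicate 1 and -4.20 in tumour replicate 2 (difference -4.44 ± 0.39 SE, n = 2 against 2, limma adjusted p = 4.54e-05), and all 5 guides were depleted in both. SMARCD1, a shared BAF subunit, was lower by less, at -1.90 and -1.45 (adjusted p = 0.0104). It had 2 of 5 guides depleted in both tumours, and it was the only list member that also passed the test in the first set, at -1.60 and -0.97 (adjusted p = 0.0416). The BAF list thus had 3 of 3 genes lower in the second set, with a median of -4.44 beside -1.23 over all second set genes, of which 49.4% were lower. SMARCD1 lost its second set call without day 0 replicate 1 (-1.49, adjusted p = 0.284) and without day 0 replicate 2 (-1.87, 0.165), and its first set call likewise (-0.97, 0.552, and -1.58, 0.277). With counts summed over guides, a setting in which abundant guides weigh most, BRD9 was at -3.54 (edgeR adjusted p = 0.0567) and SMARCD1 at -1.06 (0.169) in the second set and -1.04 (0.138) in the first. The partner of SS18 in the fusion comes from an SSX gene. SSX1 was at -1.22 and -0.91 and SSX3 at -1.25 and -0.92, each with 10 guides, and neither passed the test (adjusted p = 0.0626 and 0.0601).

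Enzymes of the SUMO pathway were among the most depleted genes of the second set. SUMO is activated by the SAE1 and UBA2 heterodimer and attached to its targets with the help of ligases such as PIAS1. All 6 genes of the list were lower in the second set, with a median of -4.86 beside 49.4% and -1.23 over all second set genes. Of their 33 guides 25 (75.8%) were depleted in both tumours, against 28.1% of all second set guides. PIAS1 fell from 205 and 123 CPM to 1.35 and 1.17 CPM at its median guide. Its value was -5.40 in tumour replicate 1 and -5.87 in tumour replicate 2 (difference -5.64 ± 0.41 SE, n = 2 against 2, limma adjusted p = 2.1e-05), with all 5 guides depleted in both.

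UBA2, with 4 guides kept, was at -5.88 and -4.89 (difference -5.39 ± 0.46 SE), and SAE1 was at -4.47 and -4.21 (-4.34 ± 0.38 SE). The limma adjusted p was 4.54e-05 for each of them. The tumours lay within 1 log2 unit of each other in both genes and far below the day 0 libraries. Fits without any 1 library gave UBA2 between -5.88 and -4.74 and SAE1 between -4.51 and -4.21, both called each time. Summed over guides UBA2 was at -2.62 (edgeR adjusted p = 0.0295).

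SUMO2 itself was less even between guides and between tumours. It spans 75165586 to 75182959 on chromosome 17 (RefSeq, GRCh38.p14), and 4 of its 5 second set guides were kept, since sgRNA_3169 had 0 reads in all 4 libraries. Its median guide stood at 302 and 201 CPM at day 0, 45.3 CPM in tumour replicate 1 and 9.91 CPM in tumour replicate 2. The value was -2.89 in tumour replicate 1 and -4.62 in tumour replicate 2, a difference of -3.75 ± 0.55 (SE, n = 2 against 2, limma adjusted p = 0.000927), which stayed under the threshold without each library (highest adjusted p = 0.0181). The guide sgRNA_3170 went from 6365 and 1022 reads to 9 and 11, sgRNA_3168 from 7317 and 1876 to 134 and 76, and sgRNA_3166 from 6846 and 793 to 270 and 93. The fourth guide, sgRNA_3167, had 3416 and 599 reads at day 0 and 497 and 339 in the tumours and was not depleted in tumour replicate 1.

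The first set guides of SUMO2 split among themselves. Of the 5, sgRNA_1228 went from 4681 and 795 reads to 8 and 5, and sgRNA_1226 from 7288 and 779 to 8 and 169. In contrast, sgRNA_1230 had 14218 and 2177 reads at day 0 and 6437 and 16454 in the tumours, above the non-targeting median in both. Their median was -0.53 and -1.10, which did not pass the test (-0.82, adjusted p = 0.18), whereas their mean over guides did (-2.08). Without tumour replicate 1 the median was called as well (-1.10, adjusted p = 0.0376).

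**Figure D2:**
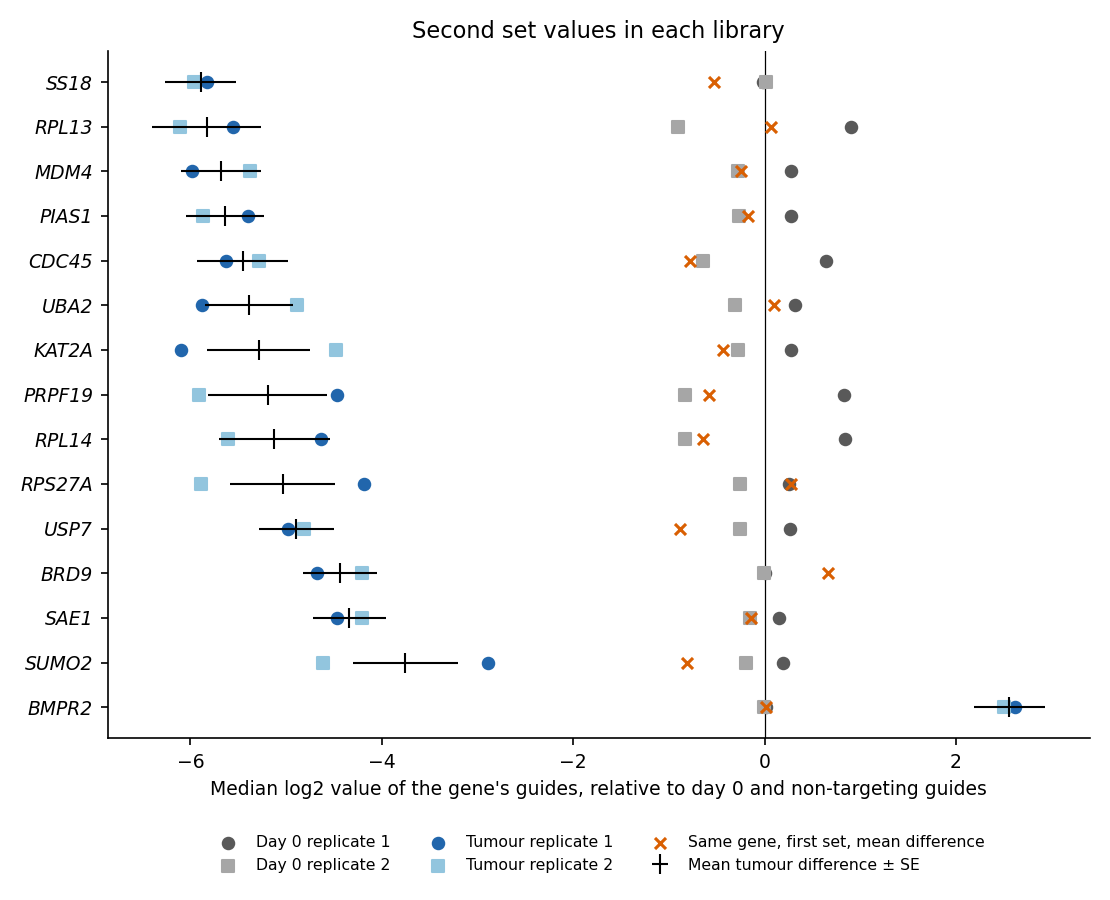
Second set value of 11 of the 12 lowest genes, of BRD9, SAE1 and SUMO2, and of BMPR2 in each of the 4 libraries, on a log2 scale relative to day 0 and to non-targeting guides. Grey points are day 0, blue points tumours, black bars the mean tumour difference with its SE, and orange crosses the first set value of the same gene; the tumours of the depleted genes lie between -6.10 and -2.89, and all the crosses lie between -0.89 and 0.66.

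Of 6 genes of p53 regulation 5 were lower, with a median of -2.88 beside 49.4% and -1.23 over all second set genes. MDM4, which binds and inhibits p53, was at -5.98 in tumour replicate 1 and -5.38 in tumour replicate 2, down from 313 and 143 CPM to 2.24 and 1.17 CPM (difference -5.68 ± 0.42 SE, n = 2 against 2, limma adjusted p = 2.1e-05). All 5 of its guides were depleted in both tumours. USP7, a deubiquitinase that stabilises MDM2, was at -4.98 and -4.81 (-4.90 ± 0.39 SE, adjusted p = 3.8e-05). The counts of its guides differed, from sgRNA_1892 with 7638 and 578 reads at day 0 and 8 and 21 in the tumours, to sgRNA_1893 with 6427 and 2244 at day 0 and 665 and 5015 in the tumours. PPM1D, a phosphatase that switches off p53 signalling, was at -3.90 and -3.13 (adjusted p = 0.000295), with 4 of 5 guides depleted in both. Summed over guides neither was called, with USP7 at -1.63 (edgeR adjusted p = 0.138) and PPM1D at -1.88 (0.0964).

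The other p53 genes changed less. TP53I13, a p53-induced gene, was lower at -2.73 and -1.75 (adjusted p = 0.00527), and CUL9, a cullin that binds p53 in the cytoplasm, at -1.20 and -2.66 (adjusted p = 0.0171). CCNG1, a p53 target, was at -1.41 and -1.01 and missed the threshold (adjusted p = 0.0502). TP53I13 lost its call without day 0 replicate 1 (-2.07, adjusted p = 0.127), and CUL9 without day 0 replicate 1 (-1.42, 0.428) or replicate 2 (-2.31, 0.0514). With counts summed over guides CUL9 turned to 0.77 (edgeR adjusted p = 0.262). In the first set USP7 was at -1.03 and -0.74 (adjusted p = 0.12, and 0.0274 without tumour replicate 2).

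Of 5 chromatin enzymes and their partners that write histone acetylation or methylation, all were lower, with a median of -3.89 and 16 of 24 guides depleted in both tumours, beside 49.4% and -1.23 over all second set genes and 28.1% of all second set guides. KAT2A, the acetyltransferase of the SAGA and ATAC complexes, was at -6.10 in tumour replicate 1 and -4.47 in tumour replicate 2, from 212 and 179 CPM to 2.02 and 8.56 CPM (difference -5.29 ± 0.54 SE, n = 2 against 2, limma adjusted p = 0.00012). Its guides did not behave alike in tumour replicate 2. There sgRNA_2467 kept 1613 reads and sgRNA_2468 kept 868, while in tumour replicate 1 they had 7 and 2. The other 3 guides were depleted in both tumours. Summed over guides KAT2A was at -2.54 and was not called (edgeR adjusted p = 0.101).

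WDR5, a scaffold of histone methyltransferase complexes, was at -3.78 and -4.69 (adjusted p = 0.000133), and KAT6A, an acetyltransferase with 4 guides kept, at -4.78 and -2.997 (adjusted p = 0.000803). TADA2B, an adaptor of KAT2A in SAGA, was at -2.37 and -4.32 (adjusted p = 0.00243), and was lower in tumour replicate 2, where KAT2A was lower in tumour replicate 1. Summed over guides KAT6A was at -1.36 (edgeR adjusted p = 0.322), TADA2B at -1.25 (0.0952) and RING1 at -1.004 (0.199), none called. ING3, a subunit of the NuA4 acetyltransferase complex, was at -1.53 and -2.12 (adjusted p = 0.00789) and lost the call without day 0 replicate 1 (-1.90, 0.159) or replicate 2 (-1.74, 0.204). Of the PRC1 genes, which carry Polycomb ubiquitin ligase activity, PCGF3 was at -2.99 and -3.49 (adjusted p = 0.000325) and RING1 at -1.73 and -1.64 (adjusted p = 0.00863). RING1 lost its call without day 0 replicate 1 (-1.52, 0.257) or replicate 2 (-1.83, 0.174). RNF2, the paralogue of RING1, was at -0.41 and 0.12 and did not pass the test (adjusted p = 0.836).

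Core machinery that dividing cells share gave 12 of 12 genes lower, with a median of -4.62 and 42 of 56 guides depleted in both tumours, beside 49.4% and -1.23 over all second set genes and 28.1% of all second set guides. Of the ribosomal proteins, RPL13 was at -5.55 and -6.10 (difference -5.83 ± 0.57 SE, n = 2 against 2, limma adjusted p = 9.43e-05), RPL14 at -4.64 and -5.60, and RPS27A, with 3 guides kept, at -4.19 and -5.89. AAMP, a ribosome factor, was at -4.32 and -4.83, and ESF1, a nucleolar protein, at -3.41 and -3.09. Of the splicing factors, PRPF19 was at -4.47 and -5.91, SRSF2 at -4.59 and -4.33, and GEMIN2, which assembles spliceosomal particles, at -2.91 and -2.58. The replication factors CDC45 and CDT1 were at -5.63 and -5.28 and at -5.78 and -3.55. The kinetochore genes changed least, with SKA2 at -3.21 and -1.81 and CENPF at -2.16 and -1.68. SKA2 lost the call without day 0 replicate 1 (-2.02, adjusted p = 0.168), and CENPF without day 0 replicate 1 (-1.87, 0.151) or replicate 2 (-1.95, 0.139). Summed over guides RPL14 (-4.01, edgeR adjusted p = 0.325), RPS27A (-4.26, 0.205), ESF1 (-0.19, 0.845), SKA2 (-1.79, 0.191) and CENPF (-0.73, 0.475) were not called, and CDT1 (-2.97, 0.0295) and SRSF2 (-2.46, 0.0331) were.

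For this group the day 0 libraries also differed. In all 12 genes the value was higher in day 0 replicate 1 than in day 0 replicate 2, by a median of 0.80, against 236 of the 348 second set genes and a median of 0.18. RPL13 had 361 CPM in day 0 replicate 1 and 112 CPM in day 0 replicate 2 at its median guide, PRPF19 123 and 63.3, RPL14 107 and 52.3, and CDC45 158 and 72.3. Of the 12 lowest second set genes, 11 were higher in day 0 replicate 1. As a description across the 348 genes, the day 0 difference and the tumour difference were correlated with r = -0.391 (Spearman -0.330). RPL13 kept its call in each fit that left out 1 library, between -6.69 and -5.03, the latter without day 0 replicate 1. The part of the day 0 libraries in these values was not tested.

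**Figure D3:**
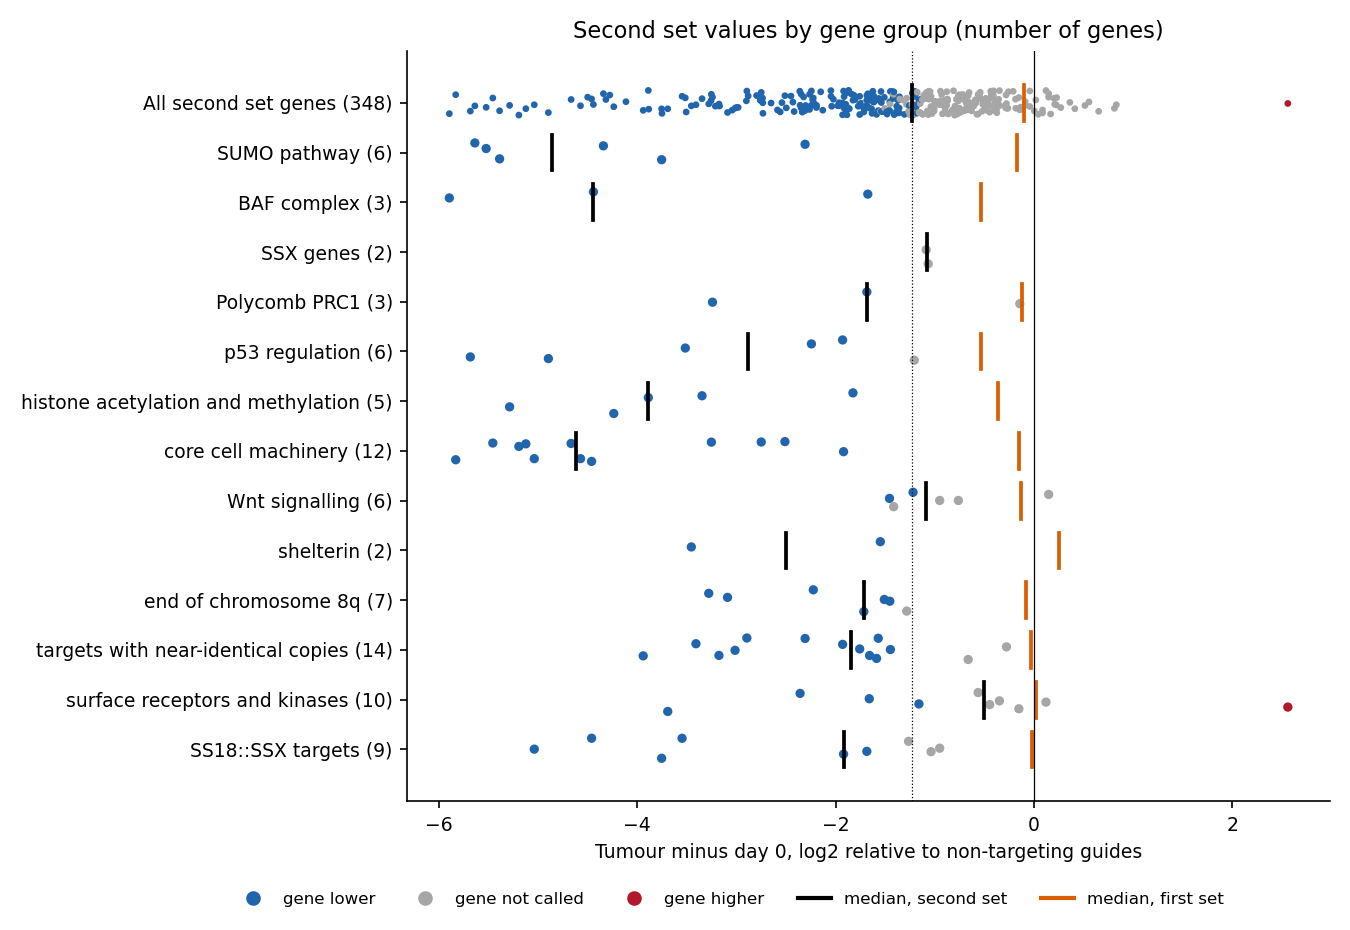
Tumour minus day 0 difference of second set genes (log2, relative to non-targeting guides) for all 348 genes and for each gene group, with the number of genes in brackets. Points are genes, blue where lower, red where higher and grey where not called, black bars are second set medians, orange bars first set medians and the dotted line the median of all second set genes; the SUMO, BAF and core machinery groups have second set medians of -4.86, -4.44 and -4.62, while their first set medians lie between -0.53 and -0.15.

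The Wnt genes lay close to the median of the second set. Of 6 Wnt genes 2 were lower, a smaller share than the 49.4% of all second set genes, with a median of -1.09 beside -1.23. They were CTNNBIP1, an inhibitor of beta-catenin (-1.29 and -1.63, adjusted p = 0.0191), and DKK1, a secreted Wnt antagonist (-1.22 and -1.22, adjusted p = 0.0374). Both lost the call without day 0 replicate 1 (-1.17, 0.46, and -0.84, 0.641) or replicate 2 (-1.83, 0.174, and -1.30, 0.432), and DKK1 stood at 0.037 when centred on the second set and at 0.72 with counts summed over guides, where CTNNBIP1 was at -1.51 (edgeR adjusted p = 0.436). CTNNB1, which encodes beta-catenin, was at -0.87 and -1.04 (adjusted p = 0.0902), BTRC at -2.12 and -0.71 (0.0587) and RSPO3, a Wnt agonist, at -0.21 and 0.51 (0.836). Of the shelterin genes, which protect telomeres, 2 of 2 were lower, with a median of -2.50 beside 49.4% and -1.23 over all second set genes. TINF2 was at -2.98 and -3.93 (limma adjusted p = 0.000542) with 4 of 5 guides depleted in both tumours. TERF1 was at -1.60 and -1.50 (adjusted p = 0.0133) and lost its call without day 0 replicate 1 (-1.26, 0.386) or replicate 2 (-1.64, 0.252).

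Of 7 listed genes near the end of the long arm of chromosome 8, 6 were lower, with a median of -1.72 and 19 of 45 guides depleted in both tumours, beside 49.4% and -1.23 over all second set genes and 28.1% of all second set guides. The list does not hold every library gene there, and NRBP2, described further on, is a neighbour that it leaves out. TSTA3 (now GFUS), an enzyme of GDP-fucose synthesis, was at -3.78 and -2.78 (difference -3.28 ± 0.45 SE, n = 2 against 2, limma adjusted p = 0.000715), with 4 of 5 guides depleted in both. C8orf82, with 10 guides, was at -3.86 and -2.32 (-3.09 ± 0.52 SE, adjusted p = 0.00201), and 6 guides were depleted in both. NAPRT, an enzyme of NAD synthesis, was at -2.47 and -1.98, COMMD5 at -1.74 and -1.69, ZNF250 at -0.92 and -2.09, and CYHR1 (now ZFTRAF1) at -1.32 and -1.59. Summed over guides C8orf82 was at -2.04 (edgeR adjusted p = 0.0419), and ZNF250 (-1.25, 0.128) and CYHR1 (-1.11, 0.0887) were not called. GRINA was at -2.19 and -0.38 and did not pass the test (adjusted p = 0.123). Without day 0 replicate 1 the calls of NAPRT (-1.74, adjusted p = 0.182), COMMD5 (-1.98, 0.125), ZNF250 (-1.41, 0.349) and CYHR1 (-1.48, 0.277) were lost, and without day 0 replicate 2 those of COMMD5 (-1.85, 0.167), ZNF250 (-1.59, 0.276) and CYHR1 (-1.41, 0.362).

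Genes that have almost identical copies at other loci were lower in 12 of 14 cases, with a median of -1.84 and 57 of 129 guides depleted in both tumours, beside 49.4% and -1.23 over all second set genes and 28.1% of all second set guides. A guide against them can cut at several places, and its count belongs to all of them. FRG2, a gene next to the repeats at the end of chromosome 4, was at -2.61 in tumour replicate 1 and -4.21 in tumour replicate 2 (difference -3.41 ± 0.54 SE, n = 2 against 2, limma adjusted p = 0.00141). Of its 10 guides 9 were depleted in both tumours, and sgRNA_3293 went from 5447 and 605 reads to 8 and 13. LGALS7B, a galectin gene with a twin copy beside it, was at -3.27 and -2.76 (adjusted p = 0.000732) with 6 of 10 guides depleted in both. CSH2, one of the placental lactogen genes, was at -2.94 and -3.41 (adjusted p = 0.000542), RASA4B at -3.81 and -1.97 and TYW1 at -5.63 and -2.24. Summed over guides RASA4B (-0.73, edgeR adjusted p = 0.378) and TYW1 (-2.33, 0.0979) were not called.

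Further genes of this group were TYW1B (-1.30 and -1.84), METTL2B (-1.48 and -2.04), MTRNR2L3 (-2.13 and -1.05), HIST3H2BB (-2.57 and -1.29), HIST1H2AM (-2.15 and -1.16) and USP6 (-1.72 and -1.17), which were all lower with adjusted p-values of 0.00891 to 0.0253. Each of these 6 lost its call without day 0 replicate 1 (TYW1B -1.57, METTL2B -1.63, MTRNR2L3 -1.70, HIST3H2BB -1.91, HIST1H2AM -1.66, USP6 -1.35) and without day 0 replicate 2 (-1.55, -1.80, -1.58, -2.05, -1.36 and -1.51). TYW1 lost its call without day 0 replicate 1 alone (-3.65, adjusted p = 0.0582), and with counts summed over guides TYW1B turned to 0.36, and METTL2B (-1.35, edgeR adjusted p = 0.0567), HIST1H2AM (-1.03, 0.187) and USP6 (-0.88, 0.154) were not called. AGAP12P (-0.27 and -0.29) and CHRFAM7A (-1.35 and 0.02) did not pass the test.

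BMPR2, a receptor for bone morphogenetic proteins, was the single second set gene that was higher in tumours. It spans 202376327 to 202567749 on chromosome 2 (RefSeq, GRCh38.p14). Its median guide rose from 281 and 339 CPM at day 0 to 3018 CPM in tumour replicate 1 and 2294 CPM in tumour replicate 2. The value was 2.61 in tumour replicate 1 and 2.50 in tumour replicate 2, a difference of 2.56 ± 0.37 (SE, n = 2 against 2, limma adjusted p = 0.000927), and it was called without each library (2.47 to 2.77, highest adjusted p = 0.033). Of its 5 second set guides sgRNA_2083 went from 4151 and 926 reads to 21093 and 36549, sgRNA_2081 from 13627 and 2103 to 19249 and 42266, and sgRNA_2084 from 10980 and 1823 to 13455 and 19572. The guide sgRNA_2085 was raised in tumour replicate 1 only, with 8912 reads there and 1178 in tumour replicate 2, from 6131 and 1532 at day 0. The 5 first set guides had a value of -0.17 and 0.20, so the rise was seen in 1 guide set.

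Of the 10 receptors and kinases of the list, which include BMPR2, 4 were lower and 1 was higher, with a median of -0.51. The share that was lower is below the 49.4% of all second set genes, whose median was -1.23. FFAR1, a fatty acid receptor, was at -4.33 and -3.06 (difference -3.69 ± 0.53 SE, n = 2 against 2, limma adjusted p = 0.000906), and all 5 guides were depleted in both tumours. PIK3C2B, a lipid kinase, was at -2.05 and -2.67 (adjusted p = 0.00234), HIPK1 at -1.84 and -1.48 (0.0134) and AKT1 at -1.29 and -1.03 (0.0484). Without day 0 replicate 1 PIK3C2B (-2.26, adjusted p = 0.0722), HIPK1 (-1.43, 0.301) and AKT1 (-0.92, 0.589) lost the call, and without replicate 2 HIPK1 (-1.99, 0.125) and AKT1 (-1.50, 0.314) did. AKT1 stood at 0.10 when centred on the second set, and summed over guides AKT1 (-1.02, edgeR adjusted p = 0.2) and HIPK1 (-1.46, 0.0887) were not called. The kinase DDR1 was at -0.30 and -0.40, and the receptors AGTR1, ACKR4 and TLR2 had a tumour on each side of 0.

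Of 9 library genes that the study marks as targets of the fusion, after a list from earlier work by others, 6 were lower with a median of -1.92, beside 49.4% and -1.23 over all second set genes. Beside SUMO2, RPS27A, SRSF2 and CENPF these were CCND2, a D-type cyclin, at -3.75 and -3.34 (difference -3.55 ± 0.39 SE, n = 2 against 2, limma adjusted p = 0.000179), and FN1, which encodes fibronectin, at -1.38 and -1.99 (adjusted p = 0.0119). Summed over guides CCND2 was at -2.01 (edgeR adjusted p = 0.0295). FN1 lost its call without day 0 replicate 1 (-1.49, 0.284) or replicate 2 (-1.86, 0.165). PLAU was at -1.55 and -0.98 and CD9 at -0.61 and -1.47, and neither passed the test (adjusted p = 0.0569 and 0.103). BICDL1, a dynein adaptor, was at -2.82 and -2.98 (-2.90 ± 0.38 SE, adjusted p = 0.000498) with 7 of 10 guides depleted in both tumours. Its guide sgRNA_2458 moved the other way, from 10676 and 1910 reads at day 0 to 21402 and 21453, so that with counts summed over guides BICDL1 stood at 0.42 (edgeR adjusted p = 0.516).

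The first and second set guides of the same gene were compared directly. In 104 of 299 genes (34.8%) the second set value was lower than the first set value by limma at an adjusted p under 0.05, and in 1 (0.334%), BMPR2, it was higher. The median difference between the sets was -1.40 in tumour replicate 1 and -1.22 in tumour replicate 2. A zero point shared by all guides of a library largely cancels in this difference. The counts were therefore bound to stay nearly the same with TMM over all guides and with median-ratio factors (104 lower with each). Without day 0 replicates 1 and 2 they were 29 and 33 lower, and 0 and 0 higher. SS18 differed by -5.36 (adjusted p = 0.00014), RPL13 by -5.89 (0.000223), PIAS1 by -5.46 (0.00014) and KAT2A by -4.85 (0.000617). Across the 299 genes the sets had a Pearson r of 0.163 (Spearman 0.194). Single first set guides could still be as low as the second set, as sgRNA_1196 against SS18 was, with 3787 and 587 reads at day 0 and 6 and 10 in the tumours, and sgRNA_870 against PIAS1, with 5143 and 873 at day 0 and 90 and 9 in the tumours. Genes whose loss is known to stop most dividing cells, such as RPL13, were near 0 by the guides that the first set assigns to them, with 0.20 in tumour replicate 1 and -0.07 in tumour replicate 2.

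**Figure D4:**
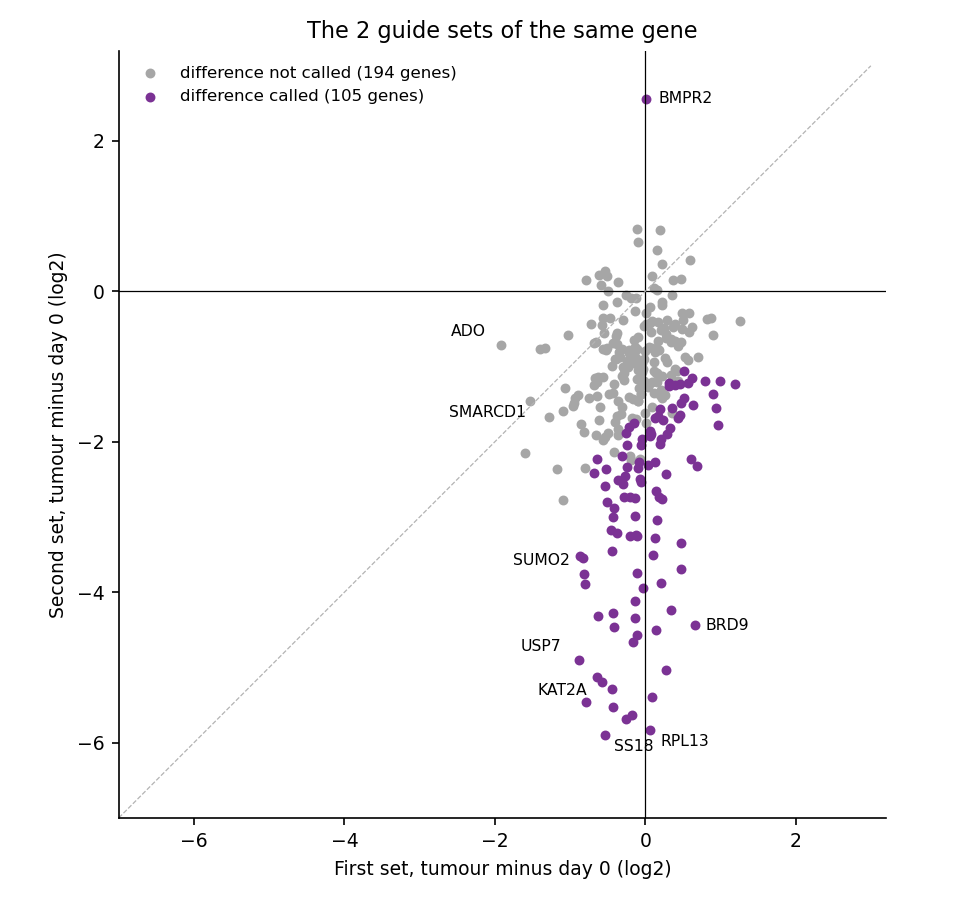
Tumour minus day 0 difference of the 299 genes with guides in both sets, first set on the horizontal and second set on the vertical axis (log2, relative to non-targeting guides); purple points are the 105 genes whose sets differ by limma, and the dashed line marks equal values. Most genes lie below the line, SMARCD1 lies near it, and BMPR2 stands above it with 0.02 in the first set.

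The 5 genes lower by first set guides, as the table assigns them, included ADO, MYO18A and GAD1, beside SMARCD1. ADO, a thiol dioxygenase, was at -2.41 in tumour replicate 1 and -1.43 in tumour replicate 2 (difference -1.92 ± 0.43 SE, n = 2 against 2, limma adjusted p = 0.00933). MYO18A, a myosin, was at -1.74 and -1.45 (adjusted p = 0.0115), and GAD1, a glutamate decarboxylase, at -1.05 and -2.03 (0.0257). Without day 0 replicate 1 these 3 stood at -1.86, -1.06 and -1.42, and without day 0 replicate 2 at -2.21, -1.44 and -1.41, none called. Summed over guides ADO (-1.38, edgeR adjusted p = 0.177) and MYO18A (-0.75, 0.356) were not called. In that setting GAD1 stood at 1.63, and it has 1 guide, sgRNA_484, that went from 5649 and 1990 reads to 28843 and 10572. By second set guides ADO was at -0.86 in tumour replicate 1 and -0.56 in tumour replicate 2, and GAD1 at -2.48 and -0.43. The median over all second set genes was -1.42 and -1.15.

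The tumours did not always resemble each other. The 4 second set genes with the widest gap were NRBP2, at -5.84 in tumour replicate 1 and -1.17 in tumour replicate 2, MAB21L1 (-5.19 and -1.32), HPN (-6.19 and -2.44) and CDS2 (-6.004 and -2.55). In each of them tumour replicate 1 was the lower. For NRBP2, sgRNA_1832 had 3204 and 1210 reads at day 0, 2 in tumour replicate 1 and 455 in tumour replicate 2, and sgRNA_1835 had 2463 and 388, 4 and 388. All 4 were called lower (adjusted p = 0.0447, 0.0326, 0.00789 and 0.00621), but without day 0 replicate 1 NRBP2 (-3.38, 0.153), MAB21L1 (-3.63, 0.0675) and HPN (-3.75, 0.0506) were not. Summed over guides NRBP2 (-2.03, edgeR adjusted p = 0.074), MAB21L1 (-0.80, 0.509) and HPN (-2.76, 0.101) were not called. A robust limma fit pulls unusually variable genes less toward the common spread. It called none of the 4 (limma adjusted p = 0.228 for NRBP2, 0.196 for MAB21L1, 0.0979 for HPN and 0.0809 for CDS2). TYW1 lost its call in that fit too (limma adjusted p = 0.098). Without tumour replicate 1 the 4 genes stood at -1.17, -1.32, -2.44 and -2.55, which were called in a fit that assumes the lone tumour to vary like the day 0 libraries.

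A few guides took a larger part of each tumour library than of the day 0 libraries. The 36 most abundant guides held 11.7% of the reads of tumour replicate 1 (Wilson 95% interval 11.6 to 11.7) and 11.4% of tumour replicate 2 (11.3 to 11.4), against 3.48% and 3.46% at day 0, and 8 of the 36 were the same in both tumours. These intervals cover counting error only. The most abundant guide of tumour replicate 1 was sgRNA_3297 against AGTR1, with 2109 and 982 reads at day 0, 35474 in that tumour and 465 in the other. In tumour replicate 2 it was sgRNA_1672 against AGAP12P, with 4952 and 954 reads at day 0, 63608 in that tumour and 1442 in the other. Guides against TSSK1B (sgRNA_3262, 35290 and 1157 reads in tumours 1 and 2), CCNG1 (sgRNA_175, 2521 and 49729) and GRM7 (sgRNA_3200, 831 and 35546) were also high in 1 tumour only. In contrast, both BMPR2 guides among the top 6 of tumour replicate 2, the KIF5C guide sgRNA_2814 (10938 and 36349) and the BPNT1 guide sgRNA_125 (23071 and 24356, from 22585 and 4220 at day 0) were abundant in both. Of the 183 non-targeting guides 5 rose above a log2 value of 2 in tumour replicate 1, 7 in tumour replicate 2 and 1 in both. The counts were 29, 51 and 10 of the 1932 second set guides and 48, 78 and 10 of the 1492 first set guides. As a share, such rises were no more frequent in the second set than among non-targeting guides, and somewhat more frequent in the first set.

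No single guide passed the threshold by itself. By edgeR's quasi-likelihood test 0 of 3607 guides (0%) were lower and 0 (0%) higher at an adjusted p under 0.05, with 650 and 107 where the unadjusted p was below 0.05, and the smallest adjusted p was 0.0503. DESeq2 called 483 lower and 70 higher, and edgeR at a threshold of 0.1 called 137 lower and 5 higher. The edgeR counts of lower guides were 1 without day 0 replicate 1, 68 without day 0 replicate 2, 959 without tumour replicate 1 and 1085 without tumour replicate 2. Rank aggregation of the guides within the second set called 28 of 348 genes (8.05%) lower and 1 (0.287%) higher at an FDR under 0.2. The 28 included SS18, RPL13, MDM4, PIAS1, UBA2, SAE1, SUMO2, USP7, BRD9, FFAR1, FRG2, C8orf82 and BICDL1 but not KAT2A (FDR 0.336) or LGALS7B (FDR 0.462), and the higher gene was BMPR2 (FDR 2.5e-05).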

How the data were processed

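Guide representation was read by sequencing the guide cassette of each library. The authors mapped paired-end reads to their guide library with MAGeCK, and the deposited count table holds whole-number counts per guide for each library, without normalization. The submitters' processing notes name hg38, with no version of MAGeCK given in the sources used here. A second deposited table holds normalized signal values, which equal the counts times 1 factor per library set by the authors by a rule that no source used here gives, and it served only as an alternative.

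Guides needed a mean of at least 30 counts at day 0, and the day 14 libraries stayed out of the fit. Gene values were tested with limma (version 3.58.1) on library medians of log2(CPM + 1), first and second set together, with Benjamini-Hochberg adjustment at 0.05, 2 libraries a group and two-sided tests. All adjusted p-values of genes come from this limma fit unless another tool is named. Guides were tested in R 4.3.3 with edgeR (4.0.16, quasi-likelihood, library sizes scaled by TMM over the non-targeting guides) and DESeq2 (1.42.0). Rank aggregation used the rank score of MAGeCK with an FDR threshold of 0.2. It ranked edgeR p-values within each guide set and took its null from uniform ranks. Its FDRs are therefore not like for like with the study's MAGeCK results. The procedures were also run on simulated counts, in which all guides of a gene shared the same effect. Guides of a gene often disagreed in the real libraries, so that run does not show how secure the calls are. Same-numbered day 0 and tumour libraries did not deviate together (r = 0.00104), so no block was used. Leaving out 1 library leaves its group with a single one, which is assumed to vary like the other group.

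Genes named are the 12 lowest and up to 6 highest called second set genes (up to 4 and 4 in the first set), called members of the gene lists with up to 4 others per list, screen hits that the study names, and the 4 genes that differ most between tumours. Guides named are those of the lowest and highest genes and of the hits, and the 6 most abundant of each tumour. The members and lists were chosen with earlier results of these data known. Gene positions are those of RefSeq on GRCh38.p14, where 336 symbols matched directly and 12 through a synonym. Guide sequences were not used here, and some genes that this rule names are not reported here.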

Additional observations from a re-analysis of the deposited data

How the results depend on the processing

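Of the second set genes, 172 were lower. That count was 83 with TMM over all guides, 76 with median-ratio factors, 64 with edgeR on summed counts, 28 by rank aggregation, 60 centred on the second set (chosen after seeing the data), and 48 to 246 with 1 library left out. The 1 higher gene became 2, 2 and 25 under TMM, median-ratio factors and second set centring, and 1 to 5 with 1 library left out. The 5 lower first set genes became 0 under TMM, median-ratio factors, summed counts and rank aggregation, 3 with the sets fitted separately (chosen after seeing the data), 9 at a threshold of 0.1, 16 with the mean over guides, and 0 to 45 with 1 library left out. The 0 higher first set genes became 9, 8, 3, 2, 1 and 1 under TMM, median-ratio factors, all 6 libraries, a threshold of 0.1, the mean over guides and summed counts, and 0 to 25 with 1 library left out. The 104 genes whose second set was lower than the first were 29 to 187 with 1 library left out, and the 1 higher was 0 to 8. With the replicate block, 144 second set and 3 first set genes were lower, 100 genes had a lower second set, and 102 guides were lower and 1 higher. The 0 lower and 0 higher guides of edgeR became 45 and 1 with at least 100 counts at day 0, 143 and 15 with all 6 libraries, 137 and 5 at a threshold of 0.1, 483 and 70 by DESeq2, and 1 to 1085 and 0 to 368 with 1 library left out.

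Some values turned sign. By summed counts GAD1 (first set) was 1.63, SUMO2 (first set) 0.49, BICDL1 0.42, CUL9 0.77, DKK1 0.72 and TYW1B 0.36. Under TMM and median-ratio factors the first set values of KAT2A were 0.16 and 0.18 and of PIAS1 0.43 and 0.44. Centred on the second set AKT1 was 0.10 and DKK1 0.037. A sum over guides gives the most abundant guide the most weight. The cause of the other changes was not tested. In 29 second set genes, among them SS18, PIAS1, UBA2, SAE1, SUMO2, MDM4 and RPL13, the call held in all 20 settings fitted to genes, the reported one included and rank aggregation aside. Among these settings the threshold of 0.1 could not lose a call, and many others refit the same 4 libraries. At the depth of the tumours 1 CPM stood for 4.46 and 8.53 reads. The values of almost lost guides therefore depend on the added 1 CPM.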
